A study of Homo sapiens with 17 samples.

Results

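Transcripts of chromatin regulator families were followed in human cells whose translation had been slowed with emetine. The members were the genes of the 1 h table whose symbols begin with ARID1 to ARID5, KMT2 or KMT5, KDM1 to KDM8, SETD1 to SETD9, EPC1 or EPC2, BRD1 to BRD9, CHD1 to CHD9, ING1 to ING5, PHF and a number, or JMJD. By this rule on names alone, 91 of 19222 genes were members: 10 ARID, 5 KMT, 18 KDM, 10 SETD, 2 EPC, 7 BRD, 10 CHD, 5 ING, 19 PHF and 5 JMJD genes. The rule used no measured value, though the members were chosen with earlier results of these data known. It also takes in a few genes known for other work, such as PHF5A, a subunit of a splicing complex, and SETD8 is the symbol in the table for KMT5A.

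Chromatin regulators set which parts of the genome can be read. Most KMT and some SETD proteins write methyl groups on histone lysines, and most KDM proteins remove them. Acetyltransferase complexes such as the one scaffolded by EPC1 and EPC2 add acetyl groups. Proteins with bromodomains (BRD) or PHD fingers (ING and PHF) read these marks, CHD proteins slide or exchange nucleosomes with the energy of ATP, and ARID proteins bind DNA within remodelling and deacetylase complexes. Because messenger RNAs that turn over quickly change in level within minutes to hours, the lifetime of such a transcript limits how fast its supply can be reset.

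HEK-293T cells derive from human embryonic kidney and carry the SV40 large T antigen. In the 1 h experiment, 3 untreated libraries and 3 libraries from cells given 1.8 µM emetine, a blocker of translation elongation, were labelled for the same hour with 500 µM s4U (4-thiouridine). One untreated and 1 emetine library had no s4U. TimeLapse-seq (TL-seq) turns s4U into apparent T-to-C conversions, so reads of RNA made during the hour can be told from reads of older RNA. In the 2 h experiment, 3 untreated libraries, 3 at 1.8 µM and 3 at 240 µM emetine were labelled with 250 µM s4U and made with another kit. Nothing in the labels says that the libraries of a group came from separate cultures, so the p-values measure only the spread between these libraries, which may be technical.

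The 8 libraries of the 1 h experiment held 27416189 to 48852046 reads, of which 22246279 to 40018063 were given to a gene. The members took 0.509% to 0.535% of the gene reads in the untreated libraries and 0.597% to 0.824% in the emetine libraries with s4U, the highest share being that of emetine replicate 3. That library stood apart: within its group its log2 level was higher the longer the transcript (Spearman's rho = 0.696 over 13482 genes, against -0.594 and -0.590 for the other 2 emetine libraries and -0.188 to 0.139 for the untreated ones). The members are long, with a median transcript of 5424 bases against 2968 for all genes, and their median log2 ratio of emetine replicate 3 to the mean of the other 2 emetine libraries was 0.39, against -0.03 for all 13776 genes tested. Where the level change of a single member is given for all 6 libraries, the change without this library is therefore given too. Of the 5 markers listed for the line, VIM (456 to 657 CPM), NEFM (142 to 212 CPM) and LIN28B (52.2 to 84.4 CPM) were well above the low NES (4.88 to 6.78 CPM) and PAX2 (1.22 to 2.43 CPM). Of the 5 markers of other cells, UMOD of mature kidney tubule and PTPRC of leukocytes had no read in the 6 libraries with s4U, PECAM1 of endothelium had 4 reads, ALB of hepatocytes 18, and COL3A1 of fibroblasts 470 (1.84 to 3.32 CPM, a range that overlaps that of PAX2).

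The level of a gene is given in CPM, its reads divided by the reads given to genes and scaled by TMM, so only shares of RNA are compared: a change in RNA per cell common to all genes cannot be told apart from none. The fraction new is the percentage of a gene's reads that came from RNA made during the hour, estimated from the conversions. The half-life follows from the fraction new in the untreated cells under the assumption of constant synthesis and decay, and was not computed for emetine. A gene was called changed at a Benjamini-Hochberg adjusted p under 0.05 over all genes tested. Level was tested for 88 members and fraction new for 83, since ARID3C, KDM4E and PHF24 had too few reads for either test, and CHD5, JMJD7, PHF7, PHF11 and PHF21B too few for the fraction new.

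One short sequence was looked for in the members and is shown here because AU-rich elements of its kind are known in short-lived messages. The heptamer TATTTAT, searched on the transcript strand of the 3′ UTR of 1 transcript per gene in GENCODE 44, was present in 41 of the 83 members tested for fraction new, against 36.8% of 10415 genes with a 3′ UTR. It was present in 4 of the 7 members whose fraction new fell under emetine. Their 6 sites are printed with GRCh38 coordinates, 5′ to 3′ on the transcript strand, with the heptamer in capitals.
EPC1, chr10:32268637-32268665, - strand: gctgttttatcTATTTATtgtgccgtgtt
ARID5B, chr10:62096116-62096144, + strand: caggactgactTATTTATttactagctag
ARID4B, chr1:235168112-235168140, - strand: atttttccattTATTTATgaaaaaatatg
ARID4B, chr1:235167711-235167739, - strand: ttcaaagtgtaTATTTATtcataatgaat
ING1, chr13:110719966-110719994, + strand: aataaaccgtgTATTTATtacattgctgc
ING1, chr13:110721996-110722024, + strand: tatatggcatgTATTTATtataagtaaaa
All 6 lie in the 3′ UTR, and the heptamer of EPC1 starts 409 bases after the stop codon, that of ARID5B 3097 bases after it, those of ARID4B 396 and 797 and those of ING1 45 and 2075 bases after it. The 41 members with the heptamer had a median untreated fraction new of 28.4% and the 42 without it 17.3%. Their 3′ UTRs were also longer, with medians of 2087 and 986 bases, and a longer UTR holds any heptamer more often. The part of the heptamer in these values was not tested. PHF13, which had the highest fraction new of the PHF family, holds none in its 2393-base 3′ UTR.

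In untreated cells the members turned over faster than most genes. Their median fraction new after 1 h was 21.7%, against 12.2% for the 10763 genes tested. By library the members' medians were 18.2%, 22.7% and 26.3%, and those of all genes 9.26%, 12.3% and 14.7%, so the members were higher in each library while the libraries themselves differed. The median half-life was 2.97 h for the members (2.27 to 3.46 h by library) and 5.65 h for all genes (4.36 to 7.13 h). Of the 83 members, 27 had a half-life under 2 h (32.5%, against 14.4% of all genes). Members ranged from 3.32% new for PHF10 to 79.3% for EPC1, and across them the fraction new ran against the level in CPM (Spearman's rho = -0.50 over 83 genes, which share libraries and depth).

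**Figure D1:**
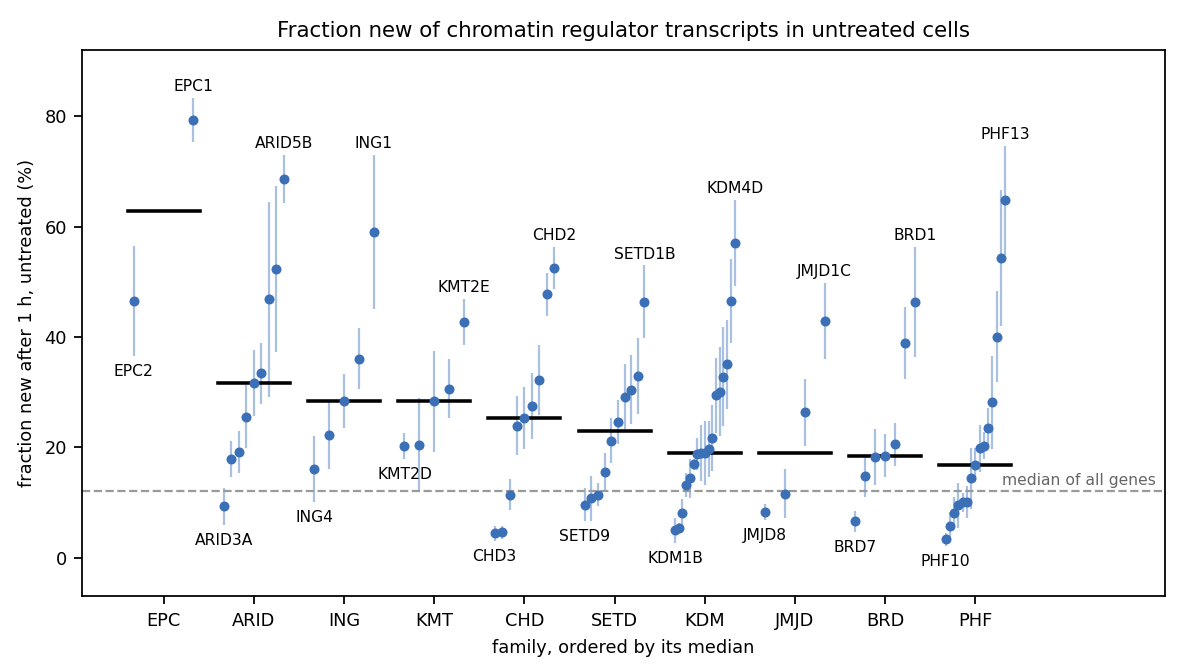
Fraction new after 1 h in untreated cells (vertical axis, percent) for the 83 members tested, by family (horizontal axis). Points are means and bars the SD of 3 untreated libraries, black lines are family medians and the dashed line is the median of all genes. The members run from 3.32% for PHF10 to 79.3% for EPC1, and all members of the EPC, KMT and ING families lie above the median of all genes, 12.2%.

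The family medians ran from 62.9% for the 2 EPC genes through 31.7% for ARID, 28.4% for ING, 28.3% for KMT, 25.3% for CHD, 22.95% for SETD, 19.05% for KDM, 19.02% for JMJD and 18.5% for BRD to 16.8% for PHF. Within the PHF family alone the members spanned 3.32% to 64.8%. Genes of a family are not replicates, and no test was made between families.

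The KMT2 genes, most of which encode H3K4 methyltransferases, were all above the median of all genes. KMT2E, a family member without known methyltransferase activity of its own, had the highest fraction new, 42.7% ± 4.25 (SD, n = 3), with a half-life of 1.25 ± 0.176 h. KMT2D had the lowest, 20.3% ± 2.32, and KMT2B was close to it at 20.5% ± 8.42, within the spread of the libraries. SETD1B, an H3K4 methyltransferase, led the SETD family with 46.4% ± 6.58 and a half-life of 1.13 ± 0.222 h. Its paralog SETD1A was at 29.2% ± 5.97, and the lowest of SETD1B's 3 values, 39.98%, was above the highest of SETD1A, 33.4%. SETD9 was the slowest of the family at 9.62% ± 2.97. SETD8, which monomethylates H4K20, was at 15.6% ± 3.45 and had the highest level of the family per length, 30.5 ± 1.39 CPM per kb, a level that may include reads shared with the 3 pseudogenes named after it in the annotation.

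The acetyltransferase scaffolds EPC1 and EPC2 were both fast. EPC1 had the highest fraction new of all members, 75.1, 79.8 and 83.1% in the 3 untreated libraries, which gives a half-life of 26.5 ± 3.28 min. EPC2 was at 35.1, 50.8 and 53.5% in the same libraries, below EPC1 in each, with a half-life of 69.7 ± 23.1 min. Next to EPC1 in the order of all members came ARID5B with 68.6% ± 4.38, whose 3 values all lay below the 3 of EPC1. PHF13 and ING1 followed with 64.8% ± 9.92 and 59.03% ± 13.96, and their values overlapped those of ARID5B and each other.

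The KDM genes spread widely. KDM4D, which demethylates H3K9, had 56.997% ± 7.83 and a half-life of 0.835 ± 0.168 h, whereas the flavin-dependent demethylases KDM1A and KDM1B had 5.32% ± 0.920 and 5.00% ± 2.29, with half-lives of 12.96 ± 2.54 h and 15.8 ± 7.62 h. KDM1A was also the most abundant KDM transcript per length, at 86.7 ± 3.26 CPM per kb. In the JMJD family, named for the JmjC domain and including hydroxylases of other proteins as well as relatives of the histone demethylases, JMJD1C was fastest at 42.9% ± 6.89 and JMJD8 slowest at 8.30% ± 1.49, and JMJD8 had the highest level of the family, 96.7 ± 3.43 CPM per kb.

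Readers and remodellers held the slowest members. The reader PHF10, a subunit of the PBAF remodelling complex, had 2.06, 3.47 and 4.43% in the untreated libraries and a half-life of 15.3 to 33.2 h by library. CHD3 and CHD4, the ATPases of the NuRD complex, had 4.42% ± 1.34 and 4.57% ± 1.20, and the ranges of PHF10, CHD3 and CHD4 overlapped. By contrast CHD2 and CHD9 had 52.5% ± 3.88 and 47.8% ± 3.90, more than any library of CHD3 or CHD4. Of the bromodomain genes, BRD1 had 46.4% ± 9.94, BRD2 38.9% ± 6.498 and BRD7 6.60% ± 1.87. BRD2 was at 102 ± 1.12 and PHF5A at 109 ± 1.91 CPM per kb, the highest levels per length among the members. Among the ING genes, ING4 was slowest at 16.1% ± 5.96, and among the ARID genes ARID3A at 9.29% ± 3.41. ARID5A had the highest level of the ARID genes per length, 12.2 ± 0.247 CPM per kb, with 33.4% ± 5.51 new.

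Under emetine, 7 of 88 members rose in level and none was called lower (edgeR, quasi-likelihood test). Over all 13776 genes 2.64% were raised and 0.0436% lowered. The raised members were EPC1, ARID4B, ARID5B, BRD1, BRD2, CHD2 and CHD9, all with an untreated half-life under 2 h. The median log2 change was 0.27 for the members and 0.03 for all genes, and 73 of the 88 members had a change above 0, against 54.0% of all genes. Every emetine library was above every untreated library for 40 members, against 19.6% of all genes, and below for 3 (15.0% of all genes), which were JMJD8, PHF10 and PHF19. At an unadjusted p under 0.05, 38 members were higher (14.9% of all genes) and 1, JMJD8, was lower (6.95% of all genes). DESeq2 called 17 members raised and none lowered, against 5.95% and 1.13% of all genes.

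These counts depended on single libraries and on the scaling. With DESeq2's size factors in place of TMM, 5 members were called in edgeR, without BRD1 and CHD9 (2.03% of all genes raised). With scaling to the spike-in only EPC1 was (0.436% of all genes), while the median change of all genes was 0.71. Spike-in reads were 0.667%, 0.480% and 0.728% of all reads in the untreated libraries and 0.304%, 0.666% and 0.408% in the emetine libraries. These ranges overlap, and without s4U the share was 0.501% untreated and 0.580% with emetine. Without emetine replicate 3 the spread of levels fell and 27 members were called raised, all 7 among them. In that fit 10.1% of all genes were raised and 3.87% lowered, and the members' median change was 0.14. With a smooth trend on length and GC taken out of each library, 17 members were raised, again with all 7, against 5.61% of all genes raised and 5.30% lowered, and the members' median was 0.12 against -0.05. Without untreated replicate 1 or 2 no member was called, without untreated replicate 3 only EPC1, and without emetine replicate 1 only EPC1 and ARID4B. Without untreated replicate 1, 2 or 3 and emetine replicate 1, 0.0294%, 0.0369%, 0.132% and 0.977% of all genes were raised. None of the 88 was called lower in any of these fits. Across 83 members the level change rose with transcript length (rho = 0.54), and without emetine replicate 3 this rho was 0.12. The plot of level change against length shows both.

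**Figure D2:**
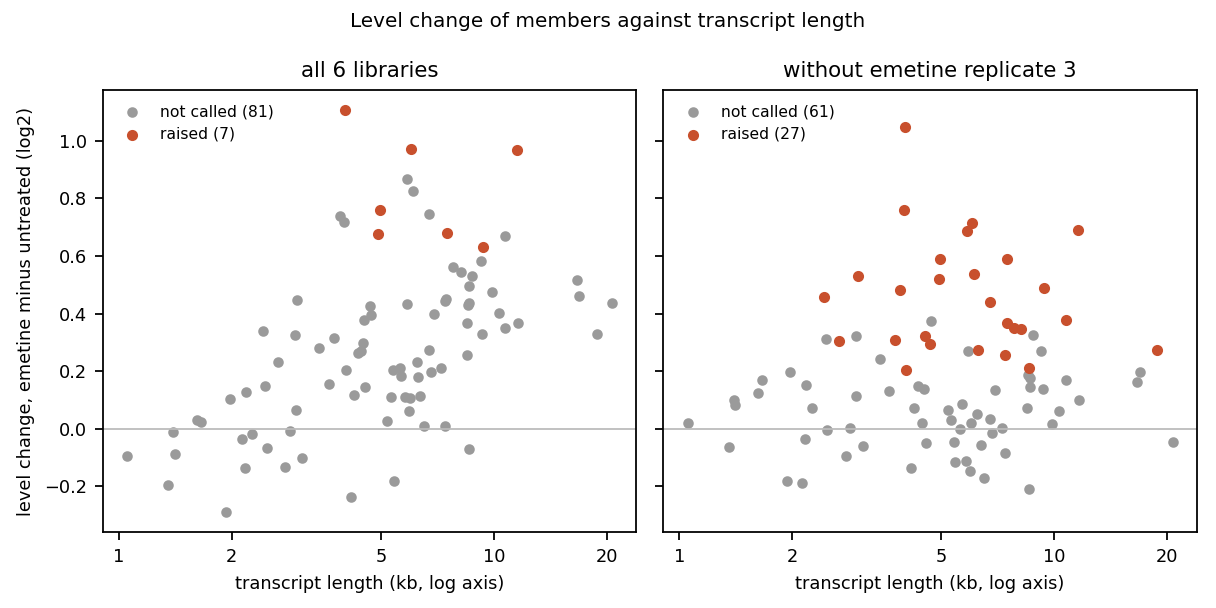
Level change in emetine against untreated cells (vertical axis, log2) for 88 members against transcript length (horizontal log axis, kb), with all 6 libraries (left) and without emetine replicate 3 (right). Red points are members called raised, 7 on the left and 27 on the right. Spearman's rho with length over the 83 members also tested for fraction new is 0.54 on the left and 0.12 on the right.

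EPC1 (chr10:32267751-32378798, GRCh38) changed most. It had 21.3, 20.4 and 23.7 CPM in the untreated libraries and 47.4, 42.2 and 50.7 CPM in the emetine libraries, with no overlap and a mean of 21.8 ± 1.71 against 46.8 ± 4.29 CPM (SD, n = 3 each). Its log2 change was 1.11 ± 0.11 (SE, edgeR adjusted p = 0.00451). Without emetine replicate 3 the change was 1.05. EPC2 (chr2:148644440-148787569) had 14.02, 16.1 and 12.7 CPM in the untreated libraries and 21.5, 18.6 and 31.4 CPM in the emetine libraries. Its groups did not overlap either, but with a log2 change of 0.74 ± 0.20 it was not called (adjusted p = 0.0947). Without emetine replicate 3 its change was smaller, 0.48, and was called (adjusted p = 0.0122), as it was with DESeq2 (adjusted p = 0.0130) and with the length and GC trend removed (adjusted p = 0.0478).

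BRD2 (chr6:32968594-32981505), a BET protein that binds acetylated histones, was by far the most abundant of the raised members. It had 509.5, 509 and 499 CPM in the untreated libraries and 773, 748 and 1044 CPM in the emetine libraries. All 3 emetine values were above all untreated ones, which lay close together. The log2 change was 0.76 ± 0.14 (edgeR adjusted p = 0.0287) and 0.59 without emetine replicate 3. BRD1 (chr22:49773283-49827873), a scaffold of histone acetyltransferase complexes, had 37.05, 40.9 and 41.4 CPM in the untreated libraries and 60.9, 52.99 and 76.6 CPM in the emetine libraries. Its log2 change was 0.68 ± 0.14 (adjusted p = 0.0419), and 0.52 without emetine replicate 3.

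The DNA-binding proteins ARID4B (chr1:235131634-235328219), a subunit of the SIN3 deacetylase complex, and ARID5B (chr10:61901684-62096944), a partner of a histone demethylase, rose as well. ARID4B had 17.2, 17.8 and 18.7 CPM in the untreated libraries and 29.8, 28.9 and 46.5 CPM in the emetine libraries, and its log2 change was 0.97 ± 0.18 (adjusted p = 0.0325). Emetine replicate 3 was the highest, and without it the change was 0.72. ARID5B had 7.03, 7.75 and 6.92 CPM in the untreated libraries and 10.7, 11.1 and 12.97 CPM in the emetine libraries, with a log2 change of 0.68 ± 0.14 (adjusted p = 0.0392), and 0.59 without emetine replicate 3. The remaining ARID genes tested had changes between 0.06 (ARID3A) and 0.87 (ARID4A) and none was called. Without emetine replicate 3 they lay between -0.15 (ARID3A) and 0.69 (ARID4A), ARID1A was at 0.44 with that library and 0.15 without it, and ARID4A was called (adjusted p = 0.00936).

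The remodellers CHD2 (chr15:92886203-93027996) and CHD9 (chr16:53054991-53329150) rose. CHD2 had 38.9, 37.99 and 33.99 CPM in the untreated libraries and 54.02, 50.01 and 67.8 CPM in the emetine libraries, a log2 change of 0.63 ± 0.13 (adjusted p = 0.0409), and 0.49 without emetine replicate 3. CHD9 had 11.05, 12.6 and 11.8 CPM in the untreated libraries and 20.9, 17.3 and 31.3 CPM in the emetine libraries, a log2 change of 0.97 ± 0.21 (adjusted p = 0.0473), and 0.69 without emetine replicate 3. CHD3 and CHD4 had changes of 0.01 ± 0.11 and 0.01 ± 0.14, and of -0.08 and -0.17 without that library, none of them called (adjusted p = 0.0709 for CHD4 without it).

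At the other end, JMJD8 had 179.9, 193 and 188 CPM in the untreated libraries and 158, 171 and 129 CPM in the emetine libraries, a log2 change of -0.29 ± 0.11 that was not called (adjusted p = 0.198). Without emetine replicate 3 it was -0.18 (adjusted p = 0.0552). PHF19, a reader that recruits Polycomb complex 2, had -0.24 ± 0.11 (adjusted p = 0.252), and -0.13 without that library. With spike-in scaling the signs of both turned, to 0.36 for JMJD8 and 0.43 for PHF19, below the 0.71 of all genes and not called. BRD7, KDM1A, PHF5A, PHF10, PHF11 and SETD8 had changes from -0.20 to -0.09, and from -0.12 (BRD7) to 0.02 (PHF5A) without emetine replicate 3, none called. BRD7, PHF5A, PHF10 and SETD8 have named pseudogenes that can share reads with them. PHF21B, with 4.34 ± 0.380 CPM in untreated cells, had a change of 0.72 ± 0.16 just outside the threshold (adjusted p = 0.0516), and without emetine replicate 3 it was called at 0.76 (adjusted p = 0.00627).

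The libraries without s4U, 1 per treatment and so without a replicate check, gave a second reading of the levels. In them 60 of 88 members were higher in the emetine library, against 50.4% of all genes, and all 7 raised members were. The log2 ratio was 0.85 for EPC1, 0.76 for BRD2, 0.52 for ARID5B, 0.44 for BRD1 and 0.42 for CHD2, but only 0.07 for CHD9 and 0.005 for ARID4B (27.6 and 27.7 CPM). Untreated levels without s4U were 33.2 CPM for EPC1, 44.03 for CHD2, 16.03 for CHD9, 46.6 for BRD1 and 9.32 for ARID5B. Like that of ARID4B, each was above all 3 untreated libraries with s4U, while BRD2 (496 CPM) was below them. The libraries without s4U were scaled over all 8 libraries, the others over the 6 with s4U. The part of labeling in this difference, and in the fraction new of these genes, was not tested.

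The fraction new fell in 7 of 83 members and rose in none (limma on the logit, adjusted p under 0.05). Over all 10763 genes it fell in 4.83% and rose in 0.214%. The 7 were EPC1, ARID4B, ARID5B, ING1, PHF13, PHF23 and SETD4. At an unadjusted p under 0.05 it was lower in 21 members (15.4% of all genes) and higher in 0 (1.15%). Every emetine library was below every untreated one for 22 members, against 16.8% of all genes, and above for 0 (2.19%). The median logit change was -0.25 for the members and -0.16 for all genes. In all, 3 members, EPC1, ARID4B and ARID5B, were called for both level and fraction new, as the plot of both changes shows. The share of all genes called for both was not counted, so no comparison is drawn from this number.

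This count depended on the untreated libraries. Untreated replicate 1 had the lowest fraction new of the 3, for the members and for all genes. Without it 38 members were called lower (23.5% of all genes), without untreated replicate 2 the count was 4 (1.73%), without untreated replicate 3 it was 2, ARID5B and EPC1 (0.873%), and without emetine replicate 1 it was 3 (1.55%). With library medians set equal, 11 members were called, 6 of the 7 among them, while 6.95% of all genes were lower and 1.17% higher. EPC1 was called lower in each of the 13 fits in which its fraction new was tested.

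**Figure D3:**
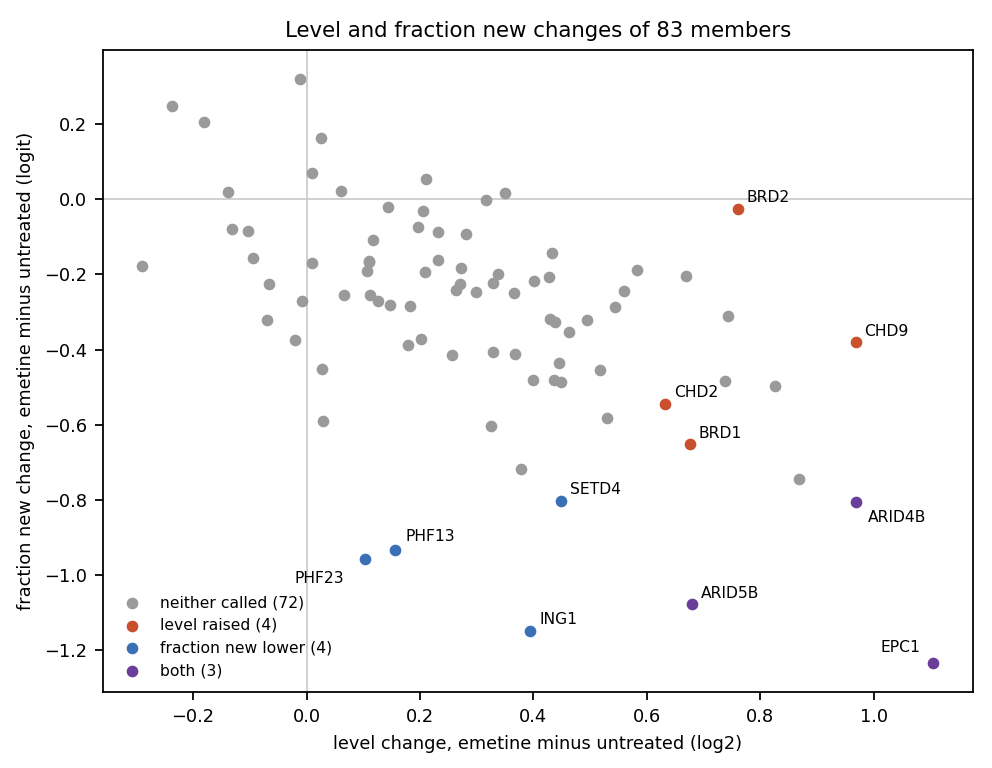
Change in fraction new (vertical axis, logit) against change in level (horizontal axis, log2), emetine minus untreated, for the 83 members tested for both. Colors mark members raised in level (4), lower in fraction new (4), both (3) or neither (72), a split not counted for all genes. EPC1 lies farthest to the lower right, and BRD2 rose in level with a fraction new change of -0.03.

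EPC1 had the largest fall in fraction new among the members. Its values were 75.1, 79.8 and 83.1% in the untreated libraries and 52.5, 54.1 and 52.5% in the emetine libraries, and the groups did not overlap. The logit change was -1.23 ± 0.25 (SE, limma adjusted p = 0.000769). ING1 (chr13:110712736-110723339), a reader of H3K4 trimethylation in SIN3 deacetylase complexes, had 43.5, 70.4 and 63.2% in the untreated libraries and 35.03, 32.4 and 27.95% in the emetine libraries. Its change was -1.15 ± 0.24 (adjusted p = 0.00144), while its level change of 0.39 ± 0.13 was not called (adjusted p = 0.158), nor was the 0.38 without emetine replicate 3. Its counts were low, with 173 to 441 reads per library, and its lower fraction new was called in 10 of 12 fits.

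The PHD finger genes PHF13 (chr1:6613731-6624030) and PHF23 (chr17:7235029-7239722), both readers of H3K4 trimethylation, fell in fraction new with levels that were not called. PHF23 had 31.2, 41.4 and 47.7% in the untreated libraries and 19.8, 19.7 and 21.5% in the emetine libraries. The logit change was -0.96 ± 0.22 (adjusted p = 0.00268). PHF13 had 54.3, 66.1 and 73.95% in the untreated libraries and 37.3, 42.4 and 47.8% in the emetine libraries, a change of -0.93 ± 0.24 (adjusted p = 0.0109). Neither gene's groups overlapped. PHF23 was called lower in 12 of 13 fits and PHF13 in 8 of 13. Without emetine replicate 3 their level changes were 0.20 and 0.13, also not called. PHF12, a subunit of a SIN3 complex, fell short of the threshold with -0.72 ± 0.24 (adjusted p = 0.0585). The level of PHF12 was not called with all 6 libraries, but was raised in edgeR without emetine replicate 3 (0.32, adjusted p = 0.00973). DESeq2 also called it raised (adjusted p = 0.0266).

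SETD4 (chr21:36034541-36079389), a SET-domain methyltransferase, had 23.6, 32.3 and 35.6% in the untreated libraries and 14.9, 20.4 and 14.05% in the emetine libraries, a change of -0.80 ± 0.21 (adjusted p = 0.0121). ARID5B had 73.7, 66.7 and 65.6% in the untreated libraries and 38.4, 46.9 and 43.3% in the emetine libraries, a change of -1.08 ± 0.24 (adjusted p = 0.00239). For both, all emetine values lay below all untreated ones. SETD4 was called lower in 7 of 13 fits and ARID5B in 11 of 12. ARID4B had 37.2, 52.4 and 67.4% in the untreated libraries and 31.9, 33.7 and 33.5% in the emetine libraries, a change of -0.81 ± 0.24 (adjusted p = 0.0368). It was called in 3 of 12 fits, and the untreated libraries were spread more widely than the emetine ones. The level of SETD4 was not called with all 6 libraries, but was raised in edgeR without emetine replicate 3 (0.53, adjusted p = 0.00121). SETD4's level was also called raised with the length and GC trend removed (edgeR adjusted p = 0.038) and with DESeq2 (adjusted p = 0.0314).

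BRD2 differed from these. Its fraction new was 32.2, 39.3 and 45.2% in the untreated libraries and 36.4, 38.7 and 39.3% in the emetine libraries, with overlapping groups and a logit change of -0.03 ± 0.22 (adjusted p = 0.975). The 3 raised members whose fraction new was also not called were BRD1 (-0.65 ± 0.23, adjusted p = 0.0784), CHD2 (-0.54 ± 0.23, adjusted p = 0.180) and CHD9 (-0.38 ± 0.23, adjusted p = 0.430). In the other direction, the largest increases were 0.32 ± 0.22 for SETD9, 0.25 ± 0.21 for PHF19, 0.21 ± 0.22 for BRD7 and 0.16 ± 0.22 for ING4, and none was called.

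**Figure D4:**
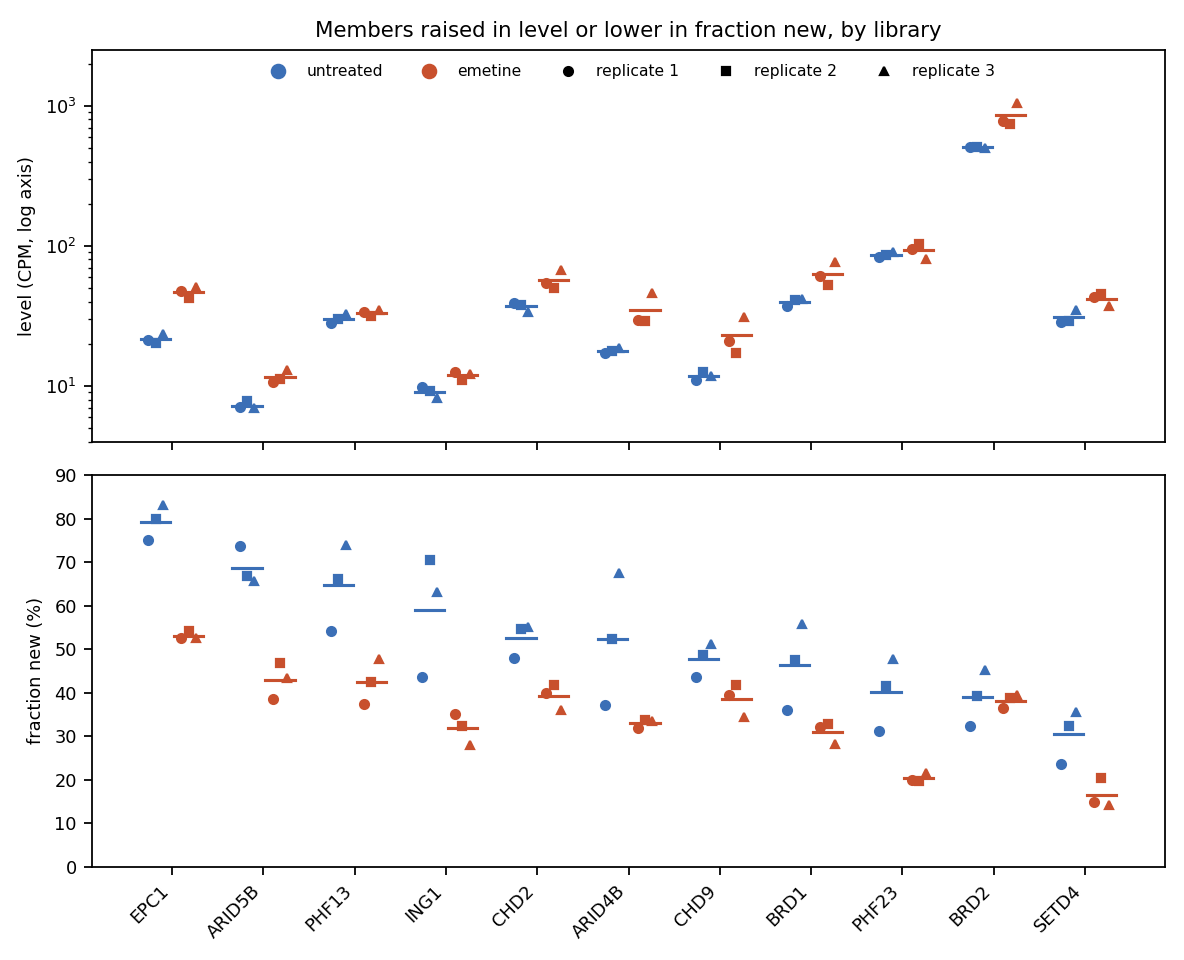
Level (top, CPM on a log axis) and fraction new (bottom, percent) in each of the 6 libraries with s4U for the 11 members raised in level or lower in fraction new, ordered by untreated fraction new. Blue marks untreated and red emetine libraries, symbols give the replicate and bars the mean of 3. EPC1 separates in both panels, PHF23 only in fraction new and BRD2 only in level.

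Level times fraction new gives the labeled reads, from RNA made during the hour, and the remainder gives the unlabeled reads, from RNA that existed before. Both are computed from the same libraries and estimates. Unlabeled reads rose in 18 of 83 members and fell in none, against 7.37% and 0.0929% of all genes. At an unadjusted p under 0.05, limma gave 42 members higher (19.5% of all genes) and 1 lower (6.74%). The 18 included all 7 members raised in level and all 7 with a lower fraction new. The other 7 were ARID4A, EPC2, KDM2A, KDM4D, KDM6A, PHF12 and PHF21A. The count was 3 to 19 when one of the other libraries was left out (2.47% to 6.597% of all genes). It was 35 without emetine replicate 3, where 13.8% of all genes rose and 3.19% fell.

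Labeled reads changed in 2 members. They rose in BRD2 (0.26% of all genes) from 164, 199.6 and 226 to 282, 289.5 and 411 CPM, a log2 change of 0.72 ± 0.19 (limma adjusted p = 0.0241), with unlabeled reads at 0.76 ± 0.15 (adjusted p = 0.0152). They fell in PHF23 (0.65% of all genes) from 25.9, 35.5 and 43.3 to 18.7, 20.4 and 17.3 CPM, a log2 change of -0.85 ± 0.22 (adjusted p = 0.0241), with unlabeled reads at 0.51 ± 0.13 (adjusted p = 0.0428). Leaving out emetine replicate 1, 2 or 3, or untreated replicate 2, removed both calls. The median labeled change was 0.004 for the members and -0.14 for all genes, and -0.06 and -0.13 without emetine replicate 3.

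EPC1 had 5.32, 4.12 and 4.01 CPM of unlabeled reads in the untreated libraries and 22.5, 19.4 and 24.1 CPM in the emetine libraries, a log2 change of 2.18 ± 0.16 (adjusted p = 0.000312). Its labeled reads changed by 0.51 ± 0.23 and were not called (adjusted p = 0.315). ARID5B had 1.85, 2.58 and 2.38 against 6.59, 5.91 and 7.36 CPM of unlabeled reads, a change of 1.37 ± 0.17 (adjusted p = 0.00241), with labeled reads at -0.003 ± 0.26. SETD4 had 21.8, 19.7 and 22.6 against 36.8, 36.3 and 32.1 CPM, a change of 0.70 ± 0.11 (adjusted p = 0.00671), with labeled reads at -0.42 ± 0.25 (adjusted p = 0.517). In all 3 genes the unlabeled reads of every emetine library were above those of every untreated library.

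**Figure D5:**
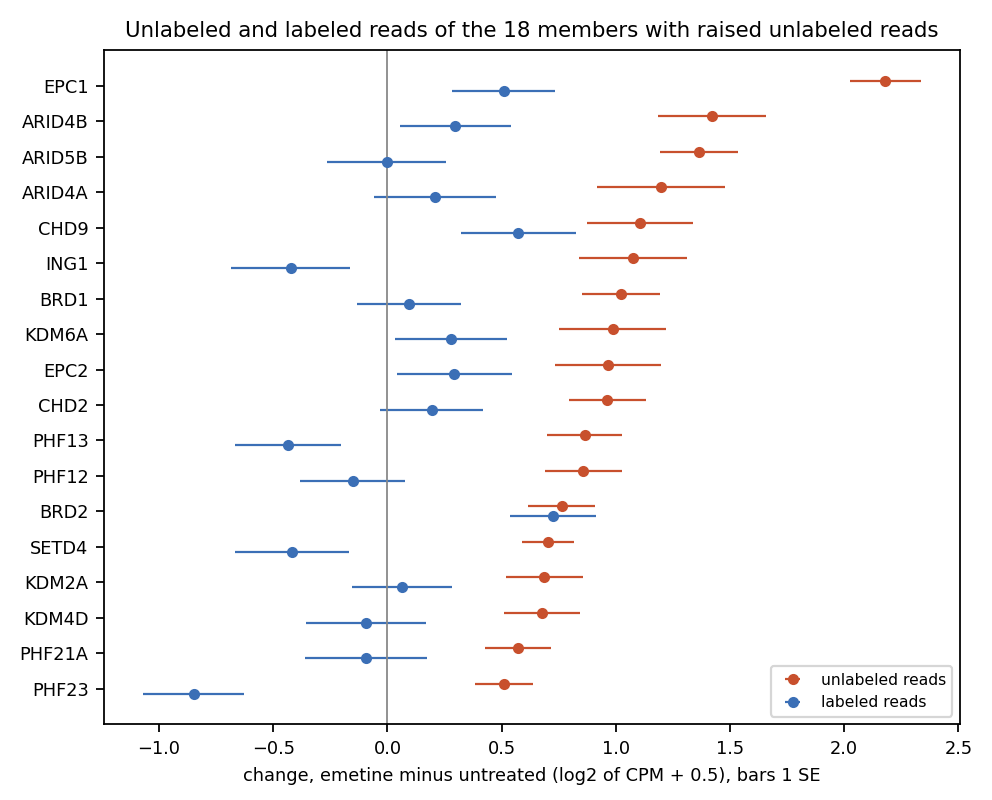
Log2 change of unlabeled (red) and labeled (blue) reads, emetine minus untreated, on the scale of log2(CPM + 0.5), for the 18 members with raised unlabeled reads. Points are limma estimates and bars 1 SE. BRD2 is the member whose labeled and unlabeled changes lie together, at 0.72 and 0.76, and PHF23 has the lowest labeled change, -0.85.

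The changes were larger among the fast members. Of the 27 with an untreated half-life under 2 h, 7 were raised in level (25.9%, against 17.01% of the 1552 genes that fast), 7 fell in fraction new (25.9% against 27.9%) and 17 rose in unlabeled reads (63.0% against 42.8%). Their median level change was 0.53, against 0.34 for all genes with such half-lives, and without emetine replicate 3 these were 0.35 and 0.26. Their median transcript was 6022 bases, against 3757 bases. The median logit change in fraction new was -0.50 for the fast members and -0.53 for all fast genes, and the median labeled change 0.06 and -0.12. Without emetine replicate 3 these were -0.42 and -0.53 for fraction new and -0.04 and -0.18 for labeled reads. The median unlabeled change was 0.77 for the fast members and 0.58 for all fast genes, and 0.63 and 0.52 without that library. The 56 members with longer half-lives had a median level change of 0.20, against -0.02 for all such genes, and 0.07 against -0.03 without emetine replicate 3. Half-life and change share the untreated libraries, so these are descriptions only.

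Other chromatin genes were taken from 8 lists (149 genes): COMPASS partners, other histone methyltransferases, Polycomb, SWI/SNF, NuRD and SIN3, acetyltransferase complexes, ISWI and INO80 remodellers, and DNA methylation. In untreated cells their median fraction new was 14.1%, with 21.4% for the Polycomb list and 10.999% for the SWI/SNF list. Of 148 tested, 2 rose in level (GLTSCR1 and INO80, against 2.64% of all genes) and none was called lower (0.0436% of all genes). By unadjusted p under 0.05, 32 were higher (14.9% of all genes) and 7 lower (6.95%). Of 142 tested, 3 fell in fraction new, the Polycomb genes CBX2, CBX8 and PCGF1 (4.83% of all genes fell), and none was called higher (0.214%). By unadjusted p under 0.05, 19 were lower (15.4% of all genes) and 1 higher (1.15%). Their median level change was 0.13 and their median logit change -0.19. By list, the median untreated fraction new was 14.1% for COMPASS partners, 13.4% for other methyltransferases, 11.3% for NuRD and SIN3, 13.3% for the acetyltransferase complexes, 14.8% for ISWI and INO80, and 21.5% for DNA methylation.

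Of the 91 members, 80 were listed among the 9982 genes of the 2 h tables. These give, for each gene, 1 value of use here, the authors' mean of spike-in normalized counts over all 2 h libraries, with no error and no split by dose. Divided by transcript length, it was highest for BRD2 (3715 per kb, from a mean of 18409.5), KDM1A (1564 per kb) and PHF10 (1519 per kb), and lowest for ARID3A (47.5 per kb) and KDM4D (47.8 per kb). EPC1 was at 395 and EPC2 at 503 per kb. Across the 80 members its order followed that of the untreated level per kb at 1 h in part (rho = 0.51), between libraries of different kits that share no sample. Those not listed included ING1, KDM8, PHF1 and SETD9, tested at 1 h for level and fraction new, and CHD5 and JMJD7, tested for level only. Changes at 2 h were not analysed here.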

How the data were processed

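The 1 h TL-seq data are whole read counts, which the authors deposited per combination of gene, number of T positions and number of T-to-C conversions. Per the labels and methods, reads were trimmed with cutadapt and mapped to hg38 with HISAT-3n before conversions were counted. Here they were summed per gene. For the 2 h experiment, the deposited signal values used are the authors' means of normalized counts. Those tables also hold the authors' log2 fold changes, standard errors, test statistics and p-values, which were not used, and the size factors were not used here. The strand setting of the counting is not given in the sources used here.

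Levels of 13776 genes with more than 100 counts in total were compared with edgeR 4.0.16 (TMM, quasi-likelihood) in R 4.3.3, between 3 untreated and 3 emetine libraries with s4U. For each gene in each library, a mixture of 2 binomials was fitted to the conversions (Python 3.11.15, pandas 2.3.3, scipy 1.17.1, numpy 2.4.6), and its weight is the fraction new. The background rate came from the library without s4U of the same treatment (0.0504% and 0.0521% of T positions in untreated and emetine) and the rate in new reads was fitted per library (8.49% to 9.53%). Its logit, bounded at 0.001 and 0.999, was compared with limma 3.58.1 (trend, robust) for 10763 genes that had 100 reads or more in every library, as were labeled and unlabeled reads after adding 0.5 CPM. The study used bakR, which was not run here. Half-life is -ln(2) times 1 h over ln(1 - fraction new). p-values are two-sided and Benjamini-Hochberg adjusted over all genes. With 3 against 3 libraries an exact permutation test cannot go below 0.1. No molecular identifiers are described, so counts give counting error only. The steps were tested on simulated data.

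Transcript length, 3′ UTR and coordinates are of 1 transcript per gene in GENCODE 44 (GRCh38, the build hg38 names). By symbol or older symbol, 18282 of 19222 genes matched, and all members did. The members and gene lists were chosen with earlier results of these data known. Named genes are in each direction the 8 members of smallest p for level and for fraction new and the 3 for labeled and for unlabeled reads, and the highest and lowest fraction new and highest level per kb of each family. ARID1A, ARID4A, KDM2A, KDM6A, PHF21A, SETD1A and all genes of other lists were named outside this rule, after their values were seen. ARID3C, CHD5, JMJD7, KDM4E, KDM8, PHF1, PHF7 and PHF24, also outside it, were named only for low reads or absence at 2 h. Alternatives were DESeq2 1.42.0, other scalings, filters and added CPM, a shared rate, centering, a length and GC trend (mgcv 1.9.3), a replicate block and leaving out each library. Same-numbered libraries did not deviate together (correlations of -0.09 to 0.09 for level and 0.003 to 0.06 for fraction new), so the numbers were not taken as pairs. Figures were drawn with matplotlib 3.10.9.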

Additional observations from a re-analysis of the deposited data

How the results depend on the processing

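Among the members, level calls (7 raised) numbered 1 with spike-in scaling, 11 with genes of at least 1 count, 17 with the length and GC trend removed, 17 with DESeq2 and 0 to 27 when 1 library was left out. The shares of all genes raised were, in the same order, 0.436%, 2.70%, 5.61%, 5.95% and 0.0294% to 10.1%. Spike-in scaling moved the median change of all genes from 0.03 to 0.71, and EPC1 stayed called under it. Calls of a lower fraction new (7) numbered 4 with at least 50 reads, 11 with centered libraries and 2 to 38 when 1 library was left out. For all genes these were 2.53%, 6.95% and 0.873% to 23.5%. Labeled reads raised (1) numbered 0 with at least 1 read in each library and 0 to 1 with 1 library left out, labeled reads lowered (1) 0 and 0 to 7, and unlabeled reads raised (18) 3 to 35 with 1 library left out. Of all genes, 0.155% and 0.121% to 0.604% had raised labeled reads, and 0.0711% and 0.0186% to 16.4% lowered ones. Unlabeled reads were raised in 2.47% to 13.8% of all genes. The 7 members with lowered labeled reads came without untreated replicate 1, where the share of all genes was 16.4%. In the other chromatin lists, level raised (2) numbered 0 with spike-in scaling, 5 with at least 1 count, 10 with the trend removed, 13 with DESeq2 and 0 to 21 with 1 library left out, and level lowered (0) numbered 4 with the trend removed and 0 to 2 with 1 library left out. With the trend removed 5.30% of all genes were lowered, and up to 3.87% with 1 library left out. The other lists' lower fraction new (3) numbered 6 with centered libraries and 0 to 37 with 1 library left out, and their higher fraction new (0) 1 with at least 500 reads, 2 with centered libraries and 1 without trend and robust fitting. For all genes the higher shares were 0.198%, 1.17% and 0.158%. With the replicate number as a block, the members' counts were 1 for level, 9 for lower fraction new, 0 for labeled reads raised and 5 for unlabeled reads raised, and the other lists' 0 for level and 5 for lower fraction new. The block fits called 0.544%, 6.01%, 0.242% and 3.33% of all genes. Of 6 libraries, 2 correlated best with their own number in level and 4 in fraction new, a hint from the data and not the design. No called value changed sign under any alternative run. The cause of these differences was not tested. Depth limits the low members: 8 of the 91 had under 100 reads in some library with s4U, and slow members such as PHF10 rest on few converted reads.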
